A study of Mus musculus with 12 samples.

Results

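The pancreatic lineage transcription factors are the proteins that set up and hold the identity of pancreatic cells, and 9 of their genes were followed in mouse pancreatic tumours. The genes were chosen by name (Pdx1, Sox9, Hnf4a, Onecut1, Ptf1a, Gata4, Gata6, Foxa2 and Nkx6-1), and all 9 were found by Ensembl identifier among the 43432 genes of the count table. RNA was sequenced in bulk from 12 tumours grown from CR705, which is a pancreatic cancer line of the mouse. In 6 tumours the CR705 cells were labelled as knockouts of the aryl hydrocarbon receptor (AHRKO), and in the other 6 they were labelled wild type (WT). The receptor, encoded by Ahr, is a transcription factor that is switched on by small-molecule ligands. The knockout is in the tumour cells. The host's strain and genotype, the age of the animals, the site of the tumours and whether the knockout line is 1 clone are not given in the labels. Each tumour also holds host cells, so every value is a sum over tumour cells, stroma and blood cells. The labels do not tie replicates to different animals, so a p-value measures the spread between these samples alone, which may be technical.

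In the embryo, Foxa2, Gata4, Gata6 and Hnf4a act in foregut endoderm, from which the pancreas buds. Pdx1 and Ptf1a then mark the pancreatic progenitor, Sox9 and Onecut1 work in its ductal and bipotent compartments, Ptf1a goes on to drive acinar cells, and Nkx6-1 marks the endocrine and later the beta-cell branch. In pancreatic cancer, high GATA6 and HNF4A are known features of the classical subtype in human tumours, and SOX9 is a ductal marker that acinar cells gain when they turn ductal in mice.

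The aryl hydrocarbon receptor binds DNA with its partner ARNT through the core GCGTG, so this core was looked for in the promoters of the 9 genes. RefSeq promoters (assembly GRCm38.p6, from 250 bases before to 50 bases after the start of transcription) were matched by symbol for 6 of the 9 genes and hold 9 starts. The promoters of Sox9, Gata4 and Gata6 were not analysed here. Counting GCGTG and its reverse complement CACGC, with overlaps allowed, 6 of the 9 promoters hold the core, against 32.4% of the 32851 promoters in the table. These 6 are the 3 starts of Foxa2 and the single promoters of Onecut1, Ptf1a and Nkx6-1, whose RNA was near or at the limit of detection. Starts of 1 gene are not independent. The sequences shown are those of the 3 factors with a promoter and a level above 1 CPM in both groups, where CPM are counts scaled to a common library total. Capitals mark the core, and every sequence runs 5′ to 3′ on the strand of its gene.
Pdx1, chr5:147269847-147270146, plus strand: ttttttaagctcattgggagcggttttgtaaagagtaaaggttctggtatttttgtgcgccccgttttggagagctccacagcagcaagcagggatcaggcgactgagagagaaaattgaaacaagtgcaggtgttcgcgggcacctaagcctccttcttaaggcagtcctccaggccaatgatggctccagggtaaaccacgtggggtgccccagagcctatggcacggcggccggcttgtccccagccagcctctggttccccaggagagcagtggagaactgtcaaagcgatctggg
Hnf4a, upstream start, chr2:163506607-163506906, plus strand: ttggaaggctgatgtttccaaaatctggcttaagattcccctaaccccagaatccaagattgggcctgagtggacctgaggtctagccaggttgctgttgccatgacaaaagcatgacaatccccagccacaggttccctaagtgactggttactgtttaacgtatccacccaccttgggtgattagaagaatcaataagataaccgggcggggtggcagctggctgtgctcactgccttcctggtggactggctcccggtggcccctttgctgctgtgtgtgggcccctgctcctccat
Hnf4a, downstream start, chr2:163546905-163547204, plus strand: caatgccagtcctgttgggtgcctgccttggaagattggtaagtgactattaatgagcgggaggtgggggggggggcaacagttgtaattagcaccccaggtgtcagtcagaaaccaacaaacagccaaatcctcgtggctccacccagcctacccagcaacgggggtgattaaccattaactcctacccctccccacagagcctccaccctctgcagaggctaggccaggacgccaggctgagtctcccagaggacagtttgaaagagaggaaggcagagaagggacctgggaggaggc
Foxa2, start farthest upstream, chr2:148046920-148047219, minus strand: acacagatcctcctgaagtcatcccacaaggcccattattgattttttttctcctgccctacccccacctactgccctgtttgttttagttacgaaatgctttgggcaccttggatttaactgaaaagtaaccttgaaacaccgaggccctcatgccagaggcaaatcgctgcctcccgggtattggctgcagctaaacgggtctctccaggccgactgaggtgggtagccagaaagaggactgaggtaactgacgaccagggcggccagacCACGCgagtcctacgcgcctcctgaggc
The Pdx1 window and both Hnf4a windows hold no core in these letters, and the Foxa2 window shown holds 1, whose first base lies 22 bases after the start. The other 2 Foxa2 starts hold 1 each, at 230 and 117 bases before the start. Hnf4a is known for its pair of promoters, the upstream of which serves pancreas and stomach and the downstream of which serves liver. Counts per gene do not tell reads from the 2 starts apart. The presence or absence of the core in a window says nothing about binding.

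Library totals ran from 14772343 to 19944273 counts in AHRKO and from 19293174 to 35881469 in WT, and 15449 genes had enough counts to be tested. Ahr itself was at 62.5 to 143 CPM in AHRKO and 101 to 126 CPM in WT, with a log2 fold change of -0.13 (SE 0.17, edgeR adjusted p = 0.606). A count over the whole gene cannot show whether its reading frame is broken, so Ahr does not check the labels. Acinar and beta-cell products were low or missing, and ductal products were present. The 25 acinar products summed to 12.2 to 53.5 CPM in AHRKO and 17.4 to 30.4 CPM in WT, with 7 of them at 0 in every library, and the insulin genes Ins1 and Ins2 were at 0 in all 12 libraries. The 24 ductal products, of which 23 had enough reads to be tested, summed to 3661 to 13640 CPM in AHRKO and 9836 to 12220 CPM in WT. Spp1 was the largest of them, at 4711 ± 1960 CPM in AHRKO and 5656 ± 846 CPM in WT (SD, n = 6 each). The 19 islet products, of which 7 were at 0 in every library, summed to 2.52 to 18.9 CPM in AHRKO and 35.1 to 72.2 CPM in WT, where Glp1r was the largest of them. AHRKO replicate 1 stood apart from the other 11. Its 5 epithelial markers (Epcam, Krt8, Krt18, Krt19 and Cdh1) summed to 606 CPM, against 2617 to 4444 CPM in the other AHRKO tumours and 3074 to 4377 CPM in WT. The same library had the highest sums of fibroblast and stellate cell (61140 CPM), endothelial (2149 CPM) and pan-leukocyte markers (3636 CPM). The other AHRKO tumours reached at most 22880, 773 and 1313 CPM for these lists, and WT at most 41420, 923 and 638 CPM. The tested factors and the counts of each list are therefore given with and without this library.

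Gata6 was lower in AHRKO tumours than in WT tumours. GATA6 is a zinc-finger factor of endoderm and pancreas, and in human pancreatic cancer it marks the classical subtype. Gata6 (ENSMUSG00000005836, mm10 chromosome 18, 11052064 to 11085635, plus strand) had 16.1, 33.5, 55.6, 37.8, 42.5 and 54.9 CPM in AHRKO replicates 1 to 6. In WT replicates 1 to 6 it had 108, 77.6, 60.7, 87.1, 82.3 and 80.3 CPM. The groups did not overlap, and the lowest AHRKO value was that of replicate 1. Gata6 averaged 40.1 ± 14.8 CPM in AHRKO and 82.7 ± 15.3 CPM in WT (SD, n = 6 each). It fell to 0.485 of its WT level, a log2 fold change of -1.05 (SE 0.25, edgeR adjusted p = 0.00841). With AHRKO replicate 1 left out, the log2 fold change was -0.88 (SE 0.16, edgeR adjusted p = 0.00152). Of all tested genes, 7.35% had every AHRKO library below every WT library, and 9.86% did without AHRKO replicate 1. In bulk samples, fewer tumour cells and less Gata6 RNA per tumour cell cannot be told apart. With the pan-leukocyte level as a covariate, added after the data were seen, the difference was -0.16 (edgeR adjusted p = 0.654). In that fit 5 of the 7 tested factors rose and 0 fell, where 12.2% of all tested genes rose and 13.6% fell (25.8% in either direction). The 14 pan-leukocyte markers all rose, and they summed to 600 to 3636 CPM in AHRKO and 352 to 638 CPM in WT. Their part in the Gata6 result was not tested beyond this fit, in which the covariate and the groups overlap little.

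Gata4, the paralog that acts beside Gata6 in early endoderm and pancreas, did not pass the test over all libraries. Gata4 (ENSMUSG00000021944, mm10 chromosome 14, 63198922 to 63271692, minus strand) had 13.3, 105, 73.8, 62.8, 268 and 107 CPM in AHRKO replicates 1 to 6. The WT replicates 1 to 6 had 72.7, 61.9, 49.6, 77.9, 59.0 and 68.7 CPM. In AHRKO, replicate 5 was the highest and replicate 1 the lowest of all 12 libraries, while WT stayed within a narrow band. Gata4 averaged 105 ± 87.0 CPM in AHRKO and 65.0 ± 10.2 CPM in WT (SD, n = 6 each), with a log2 fold change of 0.69 (SE 0.47, edgeR adjusted p = 0.29). Without AHRKO replicate 1 it rose by 0.92 on the log2 scale (SE 0.31, edgeR adjusted p = 0.0345), and without AHRKO replicate 5 the difference was 0.16 (edgeR adjusted p = 0.781).

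Sox9 encodes the HMG-box factor of pancreatic progenitors and ducts. Sox9 (ENSMUSG00000000567, mm10 chromosome 11, 112782224 to 112787760, plus strand) had 16.3, 127, 124, 149, 207 and 136 CPM in AHRKO replicates 1 to 6. Its levels in WT replicates 1 to 6 were 103, 87.5, 77.8, 86.6, 81.4 and 113 CPM. AHRKO lay on both sides of WT, since 5 AHRKO tumours were above the highest WT tumour and replicate 1 was below the lowest. The mean was 127 ± 61.9 CPM in AHRKO and 91.6 ± 13.7 CPM in WT (SD, n = 6 each), and the log2 fold change of 0.47 did not pass the test (SE 0.39, edgeR adjusted p = 0.391). In the other 5 AHRKO tumours against WT, Sox9 rose by 0.70 on the log2 scale (SE 0.14, edgeR adjusted p = 0.00263), with all 5 remaining AHRKO tumours above all WT tumours. Of all tested genes, 9.58% were above WT in this way in those 5 libraries, and 6.03% in all 6.

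**Figure D1:**
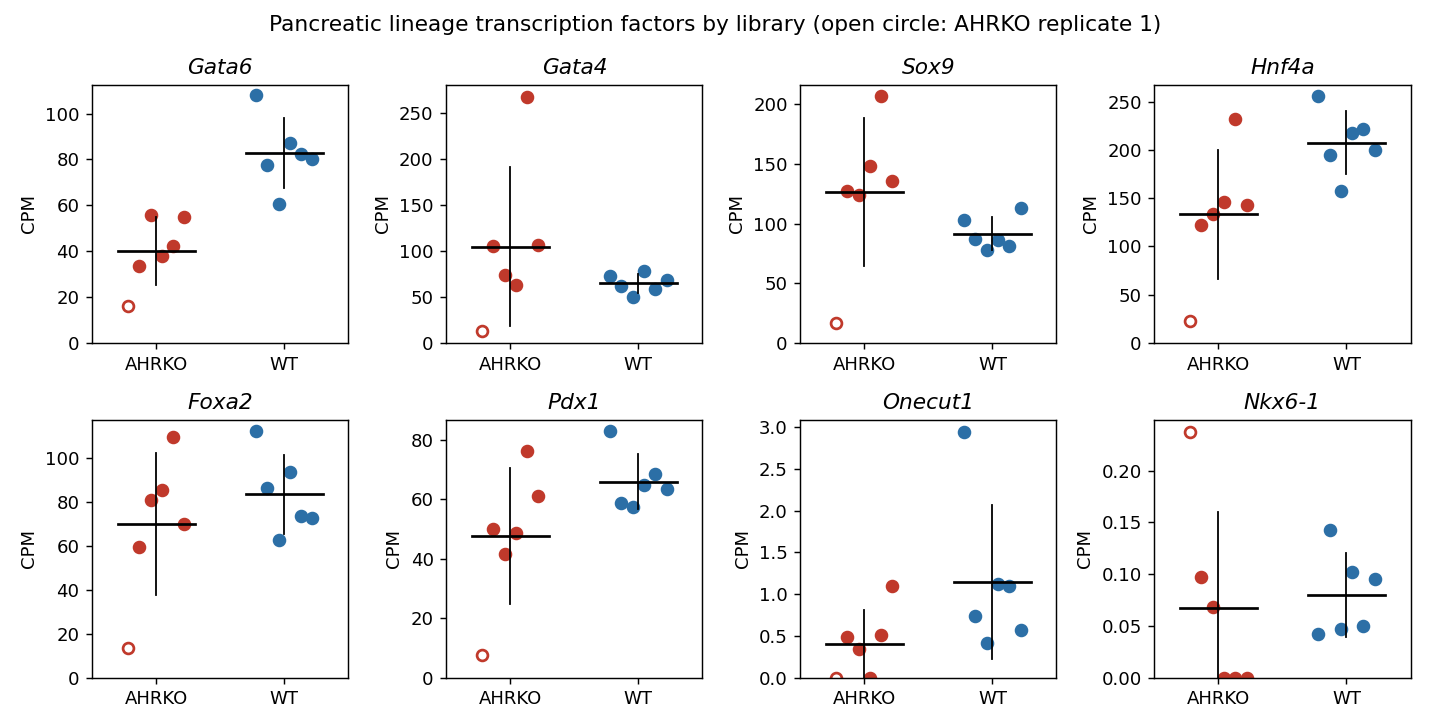
Level of 8 of the 9 factors in CPM (y axis) for each tumour, with AHRKO left of WT; each point is a library, the bar is the mean and the line 1 SD (n = 6 each), and Ptf1a is left out because it had 0 counts. Gata6 in AHRKO tumours sits between 16.1 and 55.6 CPM, below every WT tumour, and the open circle, AHRKO replicate 1, is the lowest library for 6 of the factors shown.

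Hnf4a, Foxa2 and Pdx1, factors of endoderm and of the early pancreatic bud, did not pass the test. Hnf4a encodes a nuclear receptor of liver, gut and pancreas. Hnf4a (ENSMUSG00000017950, mm10 chromosome 2, 163506808 to 163572910, plus strand) had 23.1, 122, 134, 146, 232 and 143 CPM in AHRKO replicates 1 to 6. In WT replicates 1 to 6 it had 256, 195, 158, 217, 222 and 200 CPM. In AHRKO, 5 of 6 tumours were below the lowest WT tumour, and replicate 5 lay among the WT values. The means were 133 ± 66.8 CPM in AHRKO and 208 ± 32.7 CPM in WT (SD, n = 6 each), with a log2 fold change of -0.64 (SE 0.36, edgeR adjusted p = 0.202). The difference without AHRKO replicate 1 was -0.42 (SE 0.16, edgeR adjusted p = 0.0598). Under limma-voom with sample quality weights, which give libraries that stand apart less weight, Hnf4a passed with -0.59 (adjusted p = 0.0341).

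FOXA2 is a pioneer factor that opens chromatin in endoderm. Foxa2 (ENSMUSG00000037025, mm10 chromosome 2, 148042877 to 148046969, minus strand) had 13.7, 59.5, 80.9, 85.4, 110 and 69.9 CPM in AHRKO replicates 1 to 6. The WT replicates 1 to 6 had 112, 86.1, 62.6, 93.6, 73.5 and 72.5 CPM. Apart from AHRKO replicate 1 the groups lay in nearly the same range. The log2 fold change was -0.26 over all libraries (SE 0.35, edgeR adjusted p = 0.606) and -0.04 without AHRKO replicate 1 (SE 0.17, edgeR adjusted p = 0.864).

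PDX1 is the homeobox factor without which no pancreas forms. Pdx1 (ENSMUSG00000029644, mm10 chromosome 5, 147269959 to 147275848, plus strand) had 7.71, 50.03, 41.7, 48.8, 76.3 and 61.2 CPM in AHRKO replicates 1 to 6. In WT replicates 1 to 6 it had 82.9, 58.7, 57.2, 64.7, 68.4 and 63.4 CPM. In AHRKO, 4 tumours were below the lowest WT tumour, and replicate 5 was above all WT tumours but replicate 1. The log2 fold change was -0.47 (SE 0.36, edgeR adjusted p = 0.349), and -0.24 without AHRKO replicate 1 (SE 0.14, edgeR adjusted p = 0.204).

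The last 3 factors were near or at the limit of detection. Onecut1 encodes HNF6, a factor of ductal and endocrine progenitors. Onecut1 (ENSMUSG00000043013, mm10 chromosome 9, 74861921 to 74891781, plus strand) had 0, 0.484, 0.343, 0, 0.515 and 1.10 CPM in AHRKO replicates 1 to 6. In WT replicates 1 to 6 it had 2.94, 0.743, 0.420, 1.13, 1.09 and 0.571 CPM. WT replicate 1 was the highest library and 2 AHRKO tumours had no read, but the other values of the groups overlapped. These CPM values stand for 42 reads in all of AHRKO and 161 in all of WT, and the log2 fold change of -1.48 did not pass (SE 0.74, edgeR adjusted p = 0.147), nor did the -1.22 without AHRKO replicate 1 (SE 0.66, edgeR adjusted p = 0.164). The beta-cell factor gene Nkx6-1 (ENSMUSG00000035187, mm10 chromosome 5, 101658139 to 101664996, minus strand) had 7 reads over all AHRKO tumours and 12 over all WT tumours, with at most 0.237 CPM in any library. The acinar factor gene Ptf1a (ENSMUSG00000026735, mm10 chromosome 2, 19445663 to 19447501, plus strand) had 0 counts in all 12 libraries. A floor of 3 counts per library allows up to 0.145 to 0.206 CPM of Ptf1a in AHRKO and up to 0.0857 to 0.154 CPM in WT, for counting error only. Ptf1a and Nkx6-1 had too few reads to be tested.

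Over the 7 tested factors, 0 rose, 1 fell (Gata6) and 6 did not pass in edgeR's test, where 15.9% of all 15449 tested genes rose and 13.6% fell. Beside the count of 0, no factor that was higher in AHRKO had an unadjusted p under 0.05, and DESeq2 and limma-voom also called 0 risen. The median log2 fold change of the 7 was -0.47, against 0.02 for all tested genes. In the 11 libraries without AHRKO replicate 1, 2 factors rose (Sox9 and Gata4) and 1 fell (Gata6), where 19.1% of all tested genes rose and 17.8% fell (36.9% changed in either direction). The median of the 7 was then -0.24, against 0.001 for all tested genes. With the level of the 5 epithelial markers as a covariate and all 12 libraries, the same 3 calls were made, where 17% of tested genes rose and 15.4% fell (32.5% in either direction). In that fit Sox9 differed by 1.06 (SE 0.22, edgeR adjusted p = 0.0039), Gata4 by 1.24 (SE 0.33, edgeR adjusted p = 0.0141) and Gata6 by -0.78 (SE 0.25, edgeR adjusted p = 0.0303). The other 4 differed by 0.03 (Pdx1), -0.17 (Hnf4a), -1.09 (Onecut1) and 0.22 (Foxa2), with adjusted p from 0.343 to 0.928. This fit was chosen after the data were seen. The marker level was 5.90 (mean log2 CPM) in AHRKO replicate 1. It was 7.90 to 8.74 in the other AHRKO tumours and 8.26 to 9.20 in WT. That library weighs heavily in the fit, so these calls are not a separate check on those made without it. Over the other 11 libraries this covariate gave Sox9 0.84, Gata4 1.13 and Gata6 -1.07 (edgeR adjusted p = 0.00254, 0.0272 and 0.00189). There 4553 of all tested genes changed.

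**Figure D2:**
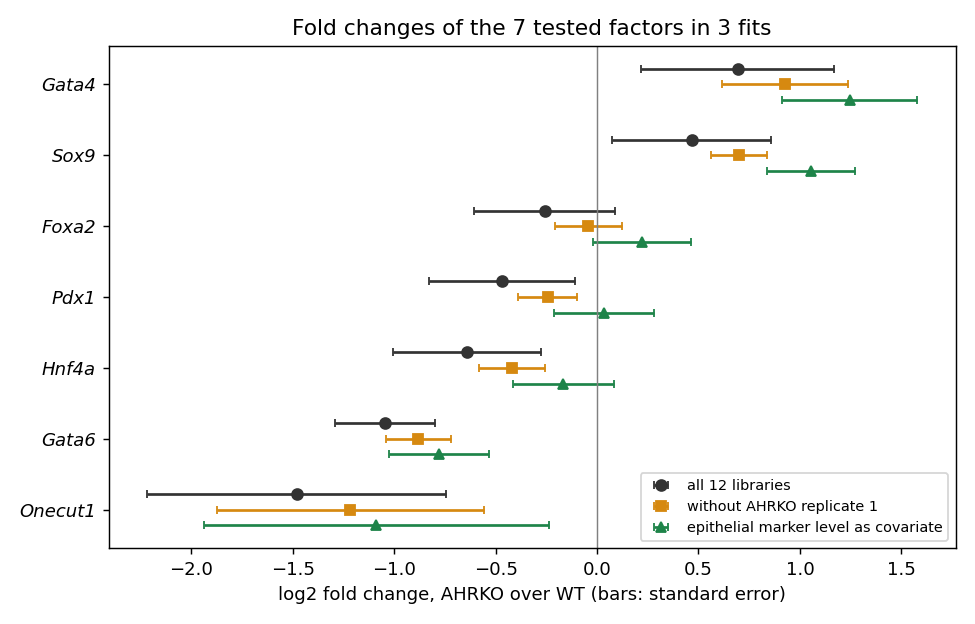
Log2 fold change of the 7 tested factors, AHRKO over WT (x axis, bars show the standard error), over all 12 libraries (circles), without AHRKO replicate 1 (squares) and with the epithelial marker level as a covariate (triangles). Sox9 and Gata4 lie above 0 and Gata6 below 0 in all 3 fits, while Pdx1 and Foxa2 cross 0 with the covariate.

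AHRKO replicate 1 was low in most factors, but not by the same factor. The median of the other AHRKO tumours exceeded it by 8.34 times for Sox9, 7.91 times for Gata4, 6.49 times for Pdx1, 6.17 times for Hnf4a and 5.93 times for Foxa2, but by 2.63 times for Gata6. Relative to the mean log2 CPM of the 5 epithelial markers in the same library, Sox9 was higher in AHRKO by 0.99 on the log2 scale, with 6 of 6 AHRKO tumours above all WT tumours, as were 7.75% of all tested genes on that scale. Gata4 was higher on that scale by 1.07, with 5 of 6 above all WT tumours. Gata6 differed by -0.30 on that scale, at -2.74 ± 0.73 in AHRKO and -2.44 ± 0.49 in WT (SD, n = 6 each). Here the groups overlapped, since 3 AHRKO tumours were below the lowest WT tumour and AHRKO replicate 1 was above the highest. Hnf4a and Pdx1 differed by -0.06 and 0.10 on this scale, and Foxa2 by 0.36, each with the groups overlapping. The epithelial markers themselves were not at the same level in both groups, though none of the 5 passed the edgeR test over all libraries. Krt19, a ductal keratin, averaged 382 ± 190 CPM in AHRKO and 786 ± 132 CPM in WT (SD, n = 6 each). Epcam averaged 16.4 ± 15.95 CPM in AHRKO and 45.3 ± 44.4 CPM in WT (SD, n = 6 each), a log2 fold change of -1.46. Krt8, Krt18 and Cdh1 differed by -0.26, -0.0026 and -0.38. Levels relative to the 5 markers carry these differences too. With Krt8, Krt18 and Cdh1 alone as the covariate, the calls of Sox9, Gata4 and Gata6 were again made, at 0.69, 0.93 and -0.88 (edgeR adjusted p = 0.00728, 0.0456 and 0.0031), a fit likewise chosen after the data were seen. In it 20.1% of all tested genes rose and 18.2% fell (38.3% in either direction).

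**Figure D3:**
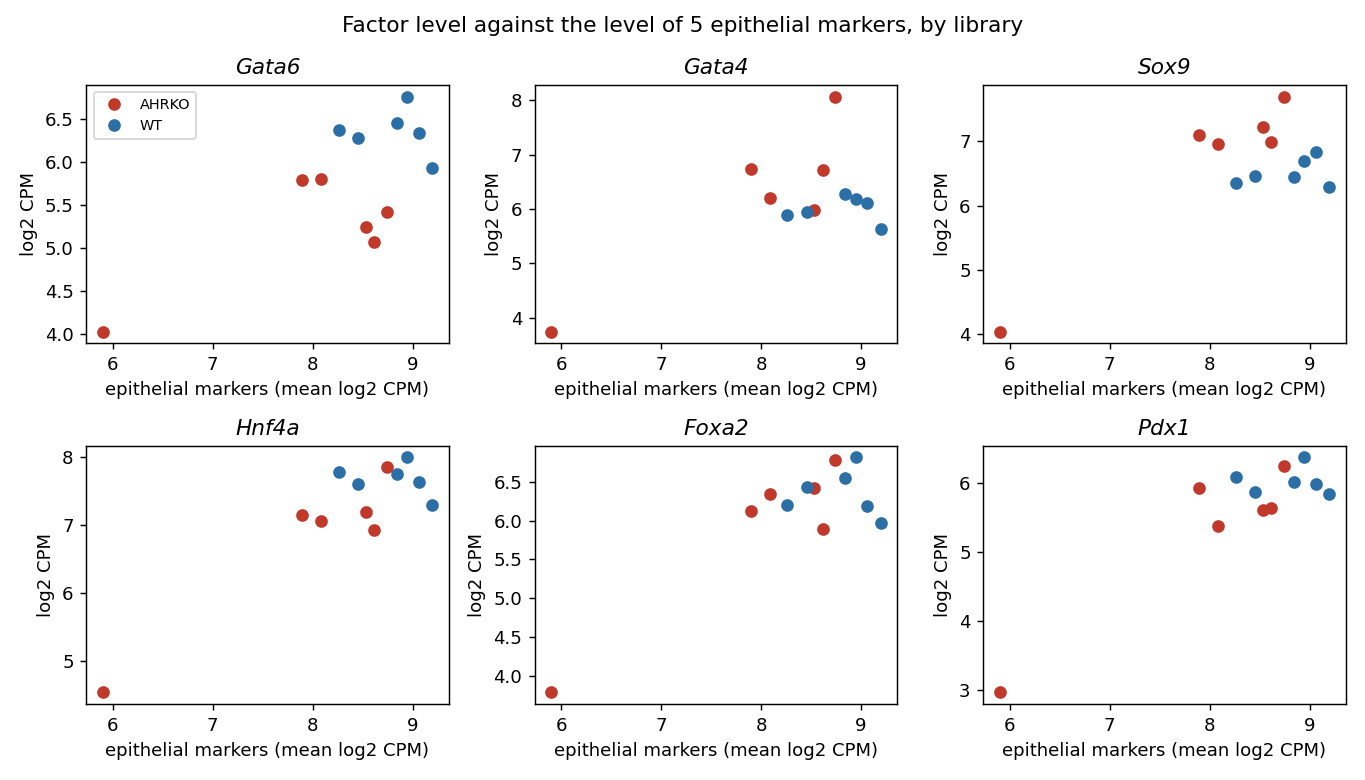
Level of 6 factors (log2 CPM, y axis) against the mean log2 CPM of Epcam, Krt8, Krt18, Krt19 and Cdh1 (x axis), with AHRKO in red and WT in blue and 1 point per tumour. AHRKO replicate 1 lies far left at 5.90, and at like marker levels the other AHRKO points lie above WT for Sox9 and below it for Gata6.

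The factors were also set against each other within each library, which does not depend on library size or on how much of the tumour is epithelial, as far as they come from the same cells. The 6 factors with at least 10 CPM on average give 15 pairs, and in 5 pairs every AHRKO tumour was above every WT tumour. These 5 were Sox9 over Hnf4a, Sox9 over Pdx1, Gata4 over Hnf4a, Gata4 over Pdx1 and Foxa2 over Hnf4a. The pairs were formed after the levels were seen, so no test is given. In each pair the factor that was relatively higher in AHRKO was put on top, so a separation in either direction would have counted. The shares of all tested genes given below count 1 direction only, so they are not a like measure for the 5 of 15 pairs. Sox9 over Hnf4a was 0.705, 1.04, 0.931, 1.02, 0.890 and 0.954 in AHRKO replicates 1 to 6, against 0.403, 0.450, 0.494, 0.399, 0.367 and 0.568 in WT replicates 1 to 6. AHRKO replicate 1, whose levels stood apart, lay with its group in this ratio. The mean ratio was 0.923 ± 0.121 in AHRKO and 0.447 ± 0.074 in WT (SD, n = 6 each), which is 2.07 times higher as a ratio of geometric means, like the folds that follow. Of the other tested genes, 7.73% had a ratio to Hnf4a with every AHRKO library above every WT library. Gata4 over Hnf4a was 0.430 to 1.15 in AHRKO and 0.266 to 0.359 in WT, 2.18 times higher, with AHRKO replicate 5 the highest. Foxa2 over Hnf4a was 0.538 ± 0.0613 in AHRKO and 0.401 ± 0.0454 in WT (SD, n = 6 each), 1.34 times higher. Against Pdx1, Sox9 was 1.86 times and Gata4 1.96 times higher, where 8.03% of tested genes separated the groups in this way. Pdx1 over Hnf4a was nearly alike, at 0.358 ± 0.0486 in AHRKO and 0.319 ± 0.0238 in WT (SD, n = 6 each), with overlapping groups.

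The GATA pair was also set against each other. Gata4 over Gata6 was 0.824, 3.14, 1.33, 1.66, 6.32 and 1.94 in AHRKO replicates 1 to 6, against 0.674, 0.797, 0.817, 0.895, 0.717 and 0.855 in WT replicates 1 to 6. In AHRKO, 5 of 6 tumours were above the highest WT tumour, and replicate 1 lay among the WT values. The WT tumours held this ratio within a narrow range, and the AHRKO tumours spread widely. The ratio averaged 2.54 ± 2.01 in AHRKO and 0.792 ± 0.0836 in WT (SD, n = 6 each). Since Gata6 was lower in every AHRKO tumour, 43.1% of tested genes had a ratio to Gata6 with every AHRKO library above every WT library.

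**Figure D4:**
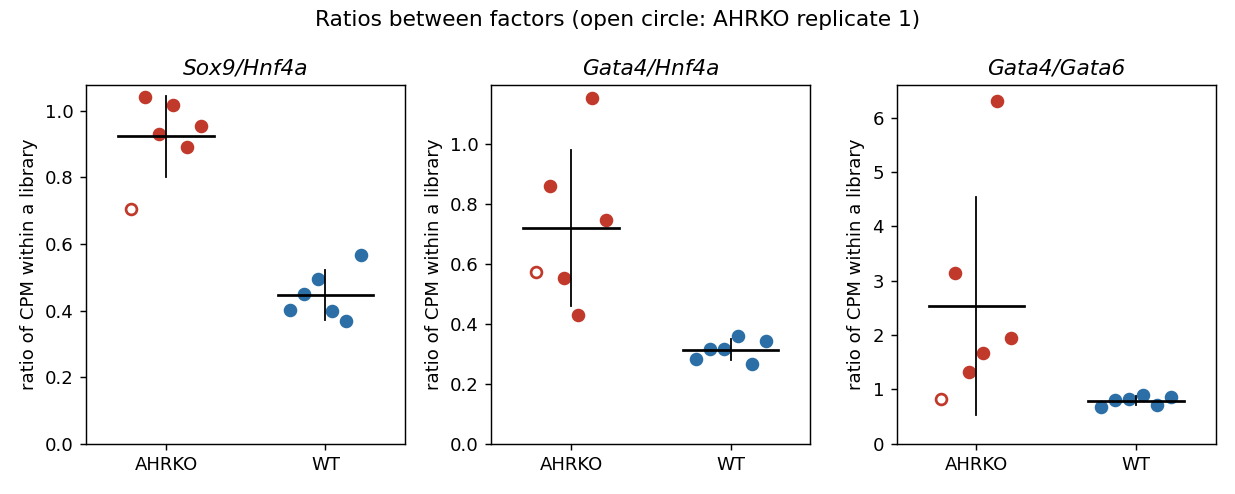
Ratio of 2 factors' CPM within each tumour (y axis), AHRKO left of WT, with 1 point per library, the mean as a bar and 1 SD as a line (n = 6 each). Sox9 over Hnf4a lies between 0.705 and 1.04 in AHRKO and between 0.367 and 0.568 in WT; the open circle is AHRKO replicate 1.

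Levels of different genes were compared per kilobase of annotated exons (CPM per kb, union of all exons in GENCODE M21). In AHRKO the order of levels was Sox9 (30.6 ± 14.98), Foxa2 (29.5 ± 13.6), Hnf4a (27.6 ± 13.8), Gata4 (26.9 ± 22.3), Pdx1 (22.1 ± 10.7) and Gata6 (6.16 ± 2.27), in CPM per kb (SD, n = 6 each). In WT it was Hnf4a (43.0 ± 6.77), Foxa2 (35.2 ± 7.55), Pdx1 (30.5 ± 4.30), Sox9 (22.2 ± 3.31), Gata4 (16.6 ± 2.62) and Gata6 (12.7 ± 2.35), in CPM per kb (SD, n = 6 each). Among these 6, the ranges over libraries of neighbours in the order overlapped in both groups. Such ranges do not compare 2 factors within the same library, so they cannot decide the place of a factor against its neighbour. Without AHRKO replicate 1, Gata6 stood apart at the low end of the AHRKO order, with 5.15 to 8.55 CPM per kb, against 19.3 to 35.4 CPM per kb for Pdx1. Onecut1 followed at 0.0989 ± 0.0992 CPM per kb in AHRKO and 0.279 ± 0.224 in WT, Nkx6-1 at 0.0214 ± 0.0297 in AHRKO and 0.0254 ± 0.0129 in WT (SD, n = 6 each), and Ptf1a at 0. The order depends on the length used. With the longest transcript in place of all exons, the AHRKO order was Foxa2 (32.8), Gata4 (30.9), Sox9 (30.6), Hnf4a (30.6), Pdx1 (22.1) and Gata6 (10.6 CPM per kb). In WT the first 4 kept their order with that length, and Gata6 (21.8 CPM per kb) passed above Gata4 (19.1 CPM per kb).

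The levels of the factors were also compared from tumour to tumour within each group. Over the 7 factors tested there are 21 pairs in each group, or 42 relations, and Pearson's r of log2 CPM was positive in 21 of 21 pairs in AHRKO (0.523 to 0.996, median 0.881) and in 21 of 21 in WT (0.292 to 0.979, median 0.783), with n = 6 libraries each. Of these 0 passed Benjamini-Hochberg adjustment over the 42, with exact permutation tests over 720 pairings (smallest adjusted p = 0.0582 for Pearson's r and 0.0877 for Spearman's rho). When the 2 libraries farthest from the median were left out, r stayed positive in 13 of 21 pairs in AHRKO (from -0.899 to 0.777) and in 18 of 21 in WT (from -0.384 to 0.962). By Pearson's r the closest pair in AHRKO was Sox9 with Hnf4a, at r of 0.996 and rho of 0.943 (exact permutation p = 0.00417 and 0.0167), and at r of 0.777 after leaving out 2 libraries. By the same measure it was Hnf4a with Gata6 in WT, at r of 0.979 and rho of 0.943 (exact permutation p = 0.00556 and 0.0167), and at r of 0.8 after leaving out 2 libraries. By Spearman's rho the closest WT pair was Pdx1 with Hnf4a, at rho of 1 (exact permutation p = 0.00278) and r of 0.898, or r of 0.903 after leaving out 2 libraries. All pairs share the libraries and their epithelial content.

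The genes with the profile most like each factor, over 12 libraries after subtracting each group's mean of log2 CPM, are given as a description; all of them share the libraries and their epithelial content. For Hnf4a the closest was Vsig1 (r = 0.991), and it stood among the 3 closest of Pdx1 (r = 0.989) and Sox9 (r = 0.988) as well. Pdx1 was closest to Pklr (r = 0.99) and Zfp239 (0.989), Sox9 to Lad1 (0.99) and Zfp7 (0.986), and Hnf4a further to Nono (0.99) and Ddr1 (0.988). Foxa2 was closest to Tmtc4 (0.981), Ddr1 (0.98) and Rassf6 (0.978), Gata4 to Ccdc120 (0.986), Pkp4 (0.979) and Nedd4 (0.977), and Onecut1 to Mprip (0.964), Rai1 (0.937) and Irs2 (0.937). Gata6 had other neighbours, Kiz (0.973), Phc1 (0.968) and Cog4 (0.965). These values lean on AHRKO replicate 1, since without it the 3 closest genes of Pdx1, Sox9, Hnf4a, Gata4 and Foxa2 were all other genes. Kiz and Phc1 (for Gata6) and Mprip (for Onecut1) were among the 3 closest with and without that library.

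Genes that overlap a factor or start next to it were read beside it, since whether the counting used strand is not stated in the sources at hand. The processed transcript 1010001N08Rik overlaps Gata6 on the other strand, with its start 503 bp from that of Gata6. It averaged 0.842 CPM in AHRKO and 3.52 CPM in WT and fell by 2.06 on the log2 scale (SE 0.48, edgeR adjusted p = 0.00764), and by 1.85 without AHRKO replicate 1 (edgeR adjusted p = 0.0051). Without strand, reads from the stretch that it shares with Gata6 cannot be told apart. The antisense gene Plut at Pdx1 averaged 16.3 CPM in AHRKO and 18.5 CPM in WT and did not pass (log2 fold change -0.18, edgeR adjusted p = 0.828), nor did it without AHRKO replicate 1 (0.07, edgeR adjusted p = 0.839). BC006965, whose start is 248 bp from that of Sox9 on the other strand, had too few reads to be tested over all libraries, at 0.760 CPM in AHRKO and 0.189 CPM in WT. It was tested without AHRKO replicate 1, where it rose by 2.21 on the log2 scale (edgeR adjusted p = 0.0022). Hnf4aos was at 0.113 CPM in AHRKO and 0.143 CPM in WT, and Ptf1aos had no reads.

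The nearest 5 tested protein-coding genes on each side of a factor were set beside it. Genes of other types are not among them, such as 1010001N08Rik, which overlaps Gata6 and fell, and Plut at Pdx1. Around Gata6, 0 of 10 rose and 0 of 10 fell, with a median log2 fold change of 0.04 and a range from -0.28 to 0.80, where 29.5% of all tested genes changed in edgeR's test. Of these 10, 1 had an unadjusted p under 0.05 in that test, Cables1 at 0.80 (edgeR adjusted p = 0.0522), named after its value was seen. Around Gata4, 2 rose and 2 fell. Blk, a Src-family kinase best known from B cells, starts 173914 bp from Gata4 and rose by 6.34 on the log2 scale (edgeR adjusted p = 6.17e-05), and Ctsb, a lysosomal protease, rose by 0.89 (edgeR adjusted p = 0.00521). Fam167a and Mtmr9 on the same side as Blk fell by 1.61 and 0.81 on the log2 scale (edgeR adjusted p = 0.00247 and 0.000784). Around Sox9, 0 rose and 4 fell, around Hnf4a 1 rose and 0 fell, around Foxa2 1 rose and 2 fell, and around Pdx1 2 rose and 1 fell. Around the 3 factors with few or no reads, 5 rose and 0 fell beside Nkx6-1, 1 rose and 4 fell beside Onecut1, and 2 rose and 0 fell beside Ptf1a. Without AHRKO replicate 1, 1 rose and 0 fell beside Gata6 (Snrpd1, by 0.31, edgeR adjusted p = 0.034), 3 rose and 3 fell beside Gata4, 0 rose and 5 fell beside Sox9, 0 rose and 2 fell beside Foxa2, 4 rose beside Nkx6-1 and 5 fell beside Onecut1. The other counts were as over all libraries.

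Related factors were read from lists of genes with the same roles, whose counts stand against the 15.9% of all tested genes that rose and the 13.6% that fell. Of the paralogs and partners of the GATA factors, 6 of 6 were tested, 2 rose and 0 fell, with a median log2 fold change of 0.82. Gata3, a factor of T cells, innate lymphoid cells and some epithelia, rose by 1.28 (edgeR adjusted p = 0.00261), and Gata1, a factor of red cells, mast cells and eosinophils, by 2.31 (edgeR adjusted p = 0.0289). Both genes were low, with Gata3 at 5.21 CPM in AHRKO and 2.14 CPM in WT, and Gata1 at 1.385 CPM in AHRKO and 0.272 CPM in WT. These are known in blood cells, and the 14 pan-leukocyte markers rose too, with a median of 1.73, or 1.17 without AHRKO replicate 1, where all 14 again rose. Their part in these changes was not tested. Gata5, the endodermal paralog, differed by -0.17 (edgeR adjusted p = 0.795), the cofactor Zfpm2 by 0.63 (edgeR adjusted p = 0.0667) and Gata2 by 1.01 (edgeR adjusted p = 0.0543). Leaving out 1 library at a time moved the count that rose between 1 and 4, and without AHRKO replicate 1 it was 2, with 0 fallen and a median of 0.61.

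Among the ductal and foregut factors, 18 of 19 were tested, 1 rose and 4 fell, with a median of -0.20. That is 5 of 18 in either direction, close to the 29.5% of all tested genes that changed. Foxa3, the paralog of Foxa2, fell by 2.36 on the log2 scale (edgeR adjusted p = 0.0119), to 0.473 ± 0.529 CPM in AHRKO, against 2.47 ± 0.692 CPM in WT (SD, n = 6 each). Cdx2, an intestinal factor, fell by 1.58 (edgeR adjusted p = 0.024) and Glis3 by 0.46 (edgeR adjusted p = 0.0136). Cdx2 was low, at 0.495 CPM in AHRKO and 1.49 CPM in WT. Klf4, a factor of epithelial differentiation, rose by 0.92 (edgeR adjusted p = 0.0047), to 101 ± 20.6 CPM in AHRKO, against 53.4 ± 14.2 CPM in WT (SD, n = 6 each). Paralogs that did not pass included Onecut2 (-0.40, edgeR adjusted p = 0.431), Onecut3 (-0.42, edgeR adjusted p = 0.508) and Foxa1 (-1.12, edgeR adjusted p = 0.0991). Foxa1 fell too without AHRKO replicate 1, by 0.87 (edgeR adjusted p = 0.0229), and 2 of the list rose and 5 fell. With 1 library left out at a time, 1 to 2 rose and 2 to 5 fell.

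The endocrine and acinar lists had few genes with reads. Of 19 endocrine factors 6 were tested, of which Mafa rose by 1.53 (edgeR adjusted p = 0.0143) and Nkx6-3, a paralog of Nkx6-1 known from stomach, fell by 1.60 (edgeR adjusted p = 0.0115). Both were low: Mafa averaged 2.25 CPM in AHRKO and 0.779 CPM in WT, and Nkx6-3 0.579 CPM in AHRKO and 1.77 CPM in WT. Both calls, and no other of the list, were made without AHRKO replicate 1 too. Of 5 acinar factors 3 were tested and 0 passed in either direction with edgeR, DESeq2 or limma-voom, nor did any at an unadjusted p under 0.05 in edgeR, with Xbp1 at 0.21 (edgeR adjusted p = 0.342) and Nr5a2 at 0.48 (edgeR adjusted p = 0.571). In edgeR 0 of the acinar factors passed without AHRKO replicate 1. In the list of SOX partners and relatives of Sox9, 5 of 6 were tested, 0 rose and 1 fell, which was Sox4 by 0.75 (edgeR adjusted p = 0.0383). Without AHRKO replicate 1, Sox6 rose by 1.66 (edgeR adjusted p = 0.0121) and Sox11 fell by 1.499 (edgeR adjusted p = 0.0315) as well. With 1 library left out at a time, 0 to 2 of this list fell and 0 to 1 rose. The Sox4 call was lost without AHRKO replicate 2, 3 or 4 and without WT replicate 1, 2, 4, 5 or 6.

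Genes that the factors are known to serve were read from lists of products and targets. Of 24 ductal products 23 were tested, 2 rose and 0 fell, with a median of -0.26. The water channel Aqp1 rose by 0.68 (edgeR adjusted p = 0.029) and Bicc1, an RNA-binding protein of ducts, by 0.76 (edgeR adjusted p = 0.00852). Without AHRKO replicate 1, 4 rose and 1 fell, the last being Krt19 by 0.81 (edgeR adjusted p = 0.00337), and over all libraries left out in turn 1 to 4 rose and 0 to 3 fell. Of 14 cartilage targets of SOX9, 7 were tested, 2 rose and 0 fell, with a median of 0.01. Col9a3 rose by 3.16 (edgeR adjusted p = 0.00531) and Col11a2 by 1.09 (edgeR adjusted p = 0.0054), while the aggrecan gene Acan differed by -0.84 (edgeR adjusted p = 0.0663). In that list 2 rose and 0 fell without AHRKO replicate 1 as well. Of 25 hepatic and intestinal targets of HNF4A, 13 were tested, 2 rose and 3 fell, with a median of -0.21. Apob, of lipoproteins, rose by 1.52 (edgeR adjusted p = 0.0141), the clotting factor gene F10 rose by 2.03 (edgeR adjusted p = 0.00496), and the brush-border gene Cdhr2 fell by 4.43 (edgeR adjusted p = 0.000272), as did Cdx2 with the value above. The counts were again 2 and 3 without AHRKO replicate 1, with a median of -0.05, and with 1 library left out at a time 2 to 3 rose and 1 to 3 fell.

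Among the 25 genes of the classical subtype of human pancreatic cancer, with which GATA6 is linked, 24 were in the count table and 20 were tested. Of the tested genes 1 rose and 4 fell, with a median of -0.39. That is 5 of 20 in either direction, against 29.5% of all tested genes. The gastric mucin gene Muc5ac fell by 5.34 (edgeR adjusted p = 0.000903), to 0.329 ± 0.166 CPM in AHRKO, against 13.4 ± 13.1 CPM in WT (SD, n = 6 each). Anxa10 fell by 2.47 (edgeR adjusted p = 0.00692) and Ctse by 1.23 (edgeR adjusted p = 0.0425), while Lyz1, a lysozyme gene of Paneth and some gastric cells, rose by 2.80 (edgeR adjusted p = 0.0303). Reads of Lyz1 may be shared with its near copy Lyz2, a gene of macrophages, so its value is uncertain. The Lyz1 call was lost without AHRKO replicate 2, without WT replicate 1, 4, 5 or 6 and with the replicate block. Of 25 genes of the basal-like subtype 11 were tested, 0 rose and 2 fell, with a median of -0.50. Among them, Scel fell by 1.07 (edgeR adjusted p = 0.0447). The count of 0 risen depends on the fit, since DESeq2, limma-voom and edgeR with no filter each called 2 risen. With AHRKO replicate 1 left out, 14 of the basal-like list were tested, 3 rose and 4 fell, with a median of -0.27. The 3 were the annexin gene Anxa8, by 1.01 (edgeR adjusted p = 0.000538), the basal keratin gene Krt14, by 1.51 (edgeR adjusted p = 0.0113), and Trp63, a factor of basal epithelia, by 2.39 (edgeR adjusted p = 0.022). Trp63 was near the limit of detection, at 0.884 CPM in AHRKO and 0.198 CPM in WT over all libraries. In the classical list 1 rose and 4 fell without that library, with a median of -0.20. With 1 library left out at a time, 0 to 3 basal-like genes rose and 1 to 4 fell, and 0 to 1 classical genes rose and 2 to 6 fell. The summed level of the classical list was 361 CPM in AHRKO replicate 1, 1317 to 2328 CPM in the other AHRKO tumours and 1697 to 2457 CPM in WT. Of 19 islet products 5 were tested and 1 fell, the receptor gene Glp1r, to 0.431 ± 0.200 CPM in AHRKO, against 46.2 ± 17.6 CPM in WT (SD, n = 6 each), a log2 fold change of -6.75 (edgeR adjusted p = 1.45e-06). Of 25 acinar products 3 were tested and 1 rose, Amy1 by 1.45 (edgeR adjusted p = 0.0135), whose reads may be shared with the Amy2 copies. These last 2 lists again gave 1 fallen and 1 risen without AHRKO replicate 1.

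Lists for other cells that a tumour could hold gave 0 of 14 fibroblast and stellate cell markers and 0 of 11 endothelial markers past the edgeR test in either direction. At an unadjusted p under 0.05 there were 2 fibroblast and stellate cell markers and 0 endothelial ones. DESeq2 called 1 of the fibroblast list risen and limma-voom 4 fallen, and both called 0 of the endothelial list. In the fit without AHRKO replicate 1, 7 of the fibroblast and stellate cell markers fell and 0 endothelial markers passed. Of 3 tested mesothelial markers 1 fell (Msln). Msln averaged 488 CPM in AHRKO and 965 CPM in WT, but Wt1 was at 1.46 and 1.64 CPM and Upk3b at 0.157 and 0.441 CPM. Which cells the Msln reads come from was not tested. Of 8 peritoneal macrophage markers 2 rose (Alox15 and Selp) and 1 fell (Garnl3). Of 5 skeletal muscle markers 2 rose (Mylpf and Neb), of 3 skin markers 2 fell (Krt10 and Lor) and of 3 hepatocyte markers 1 rose (Trf). When AHRKO replicate 1 was left out, 2 mesothelial markers fell, 3 macrophage markers rose and 2 fell, and 2 skin markers rose and 2 fell. The counts for muscle and hepatocyte markers did not change. The lists share genes, so these counts are not separate results. The skin markers that rose were Krt14 and Trp63, named above in the basal-like list. The mesothelial marker that fell beside Msln was Krt19, named above as a ductal product. The muscle markers summed to 499 CPM in AHRKO replicate 2 and to at most 19.6 CPM in all other libraries. Of the muscle markers 0 rose without that tumour, and likewise 0 without any 1 of WT replicates 1 to 5. Their part in the results of the factors was not tested.

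**Figure D5:**
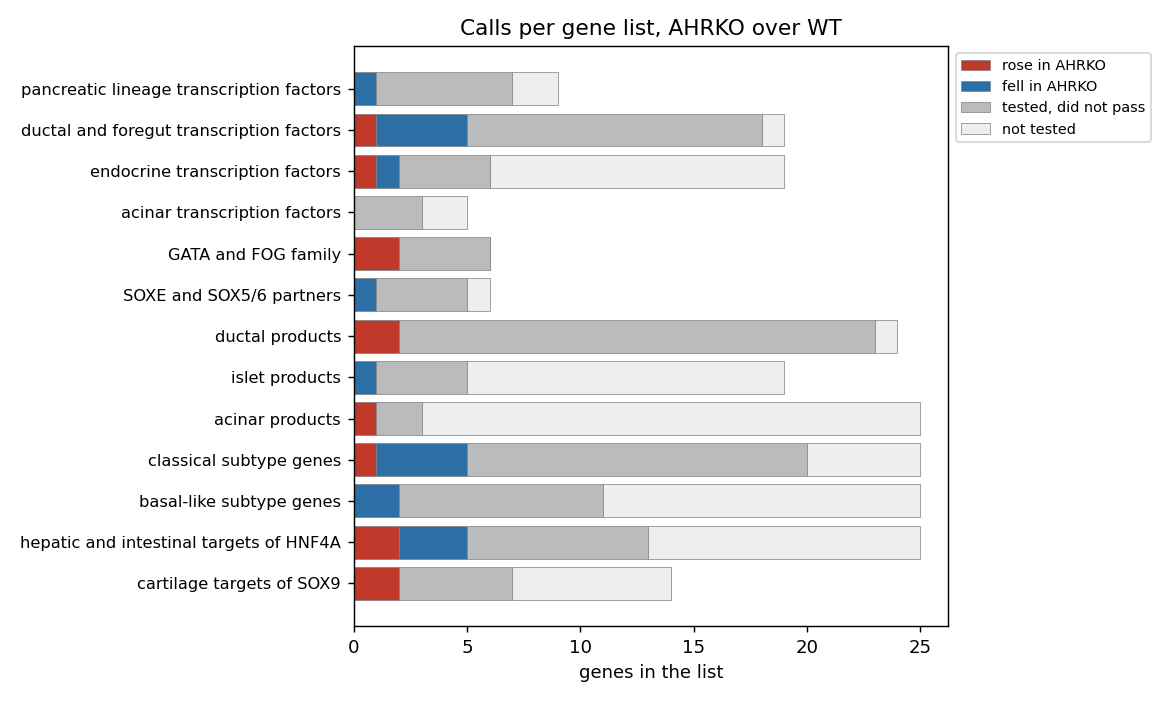
Number of genes in each list (x axis) that rose (red) or fell (blue) in AHRKO over WT. Dark grey genes were tested and did not pass. Light grey genes were not tested, for too few reads or because the count table does not hold them. Of the 9 pancreatic lineage factors 1 fell and 6 did not pass, and most acinar, islet and endocrine genes had too few reads.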

How the data were processed

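Poly-A RNA from 12 tumours was sequenced on an Illumina instrument, per the labels' protocols. Other protocol texts speak of compounds added to cultures, but the RNA text speaks of tumours and no sample names a compound, so all 12 were taken as untreated tumours. Per the submitters' processing notes, HISAT2, SAMtools, HTSeq and DESeq2 were used with mm10; the annotation, the strand setting and the versions were not stated there. The authors deposited raw counts per gene.

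Symbols, exons and coordinates were joined by Ensembl identifier from GENCODE M21, which matched 42548 of 43432 genes. Genes were kept by edgeR's filterByExpr (15449 genes) and TMM gave the scaling. The comparison of AHRKO with WT used edgeR's (4.0.16) two-sided quasi-likelihood test over all 12 libraries, and p-values adjusted by Benjamini and Hochberg's method over the 15449 genes were held to 0.05. CPM use TMM-scaled totals, and their log2 a prior count of 2. DESeq2 (1.42.0) and limma (3.58.1) ran in R 4.3.3 as well. The fits were tested on simulated data. Chi-squared per degree of freedom between 2 libraries of a group was at least 13.6, so no pair was alike within sampling noise. Totals of 14772343 to 35881469 counts cover counting error only, since the counts carry no molecular identifiers.

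Named genes are the 9 factors, Ahr, up to 4 tested genes with the smallest p of each list with a call and up to 2 of the others, the 3 genes most like each factor, and genes overlapping a factor or starting within 10 kb on the other strand. Other genes named (neighbours, the paralogs that did not pass and genes called only without AHRKO replicate 1) were chosen after their values were seen. The factors and lists were chosen with earlier results of these data known. Alternatives were RLE and upper-quartile scaling, no filter, a stricter filter (10 counts in 6 libraries), DESeq2, limma-voom with quality weights, a replicate block, each library left out, another gene length and 4 covariate fits added later. Some genes counted in the lists are not reported here by name.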

Additional observations from a re-analysis of the deposited data

Results flagged for a closer look

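AHRKO replicate 1 lay far from the other 5 AHRKO tumours, by Dixon's criterion, for 4 of the factors. Its level was 7.71 CPM for Pdx1, 16.3 CPM for Sox9, 23.1 CPM for Hnf4a and 13.7 CPM for Foxa2. The next lowest AHRKO tumour had 41.7 CPM for Pdx1, 124 CPM for Sox9, 122 CPM for Hnf4a and 59.5 CPM for Foxa2. The mean log2 CPM of the 5 epithelial markers was also far from the others in this library, at 5.90, against 7.90 to 8.74 in the other AHRKO tumours and 8.26 to 9.20 in WT. Of 14 groups of 6 tested for the factors, 4 met the criterion, where chance alone gives about 1 in 20. The 4 share the same library and are not independent. Onecut1 did not meet the criterion, and Nkx6-1, which had too few reads, was not put to it. Gata6 and Gata4 in AHRKO replicate 1 were the lowest of their group, at 16.1 and 13.3 CPM, and did not meet the criterion.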

How the results depend on the processing

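Gata6 fell in 22 of 23 alternatives. Its log2 fold change was -1.16 to -0.88 with 1 library left out (edgeR adjusted p from 0.00152 to 0.021), -1.11 to -0.91 with another scaling, filter, tool or the replicate block (adjusted p up to 0.0494), and -0.16 with the pan-leukocyte covariate (edgeR adjusted p = 0.654). The number of factors called was 1 over all libraries, where 4557 of all tested genes changed. It was 2 in limma-voom with quality weights (both fell), where 6028 changed. It was 3 (of which 2 rose) with the epithelial covariate, with the Krt8, Krt18 and Cdh1 covariate and with the epithelial covariate over 11 libraries. In these fits, in that order, 5015, 5922 and 4553 of all tested genes changed. The number of factors was 5 with the pan-leukocyte covariate, where 5 rose and 0 fell and 12.2% of all tested genes rose. With 1 library left out, between 1 and 3 were called and between 0 and 2 rose. The highest counts came without AHRKO replicate 1. Sox9 was 0.27 to 0.70 and Gata4 0.16 to 0.92 in those fits. Directions reversed only with added covariates. With the epithelial covariate Pdx1 was 0.0341 and Foxa2 0.22, and over 11 libraries Foxa2 was 0.0151. With the pan-leukocyte covariate Pdx1 was 0.89, Hnf4a 0.76, Onecut1 0.86 and Foxa2 1.03 (edgeR adjusted p = 0.0483, 0.0499, 0.57 and 0.0253). The cause was not tested.

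The labels do not say whether the replicate numbers pair the samples. Same-numbered deviations correlated at -0.5 to -0.003 over 6 pairs, and 0 of 6 AHRKO libraries matched best with their own number. These values cannot show that same-numbered samples have nothing in common, so pairing is unknown. With the replicate block, 2354 genes changed (1114 rose, 1240 fell), against 4557 without it (2451 rose, 2106 fell), and Gata6 was at -1.11 (edgeR adjusted p = 0.0494). With 1 library left out, 3454 to 5758 genes changed. Of 920 counts over the other lists, 725 stayed within 1.5 times. Per kb of the longest transcript, Gata6 moved to 10.6 in AHRKO and 21.8 in WT. Ptf1a and Nkx6-1 are limited by depth; with no filter Nkx6-1 was at -0.27 (edgeR adjusted p = 0.858).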

Other observations

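The levels of Blk, whose start lies 173914 bp from that of Gata4, were set beside those of Gata4. Blk had 14.1, 56.2, 29.8, 38.3, 109 and 47.3 CPM in AHRKO replicates 1 to 6, against 0.126, 0.685, 0.559, 0.461, 0.347 and 1.43 CPM in WT replicates 1 to 6. The highest and the lowest AHRKO tumour were the same for both genes, replicates 5 and 1. Over the 6 AHRKO tumours Pearson's r of log2 CPM was 0.97 (exact permutation p = 0.00556) and Spearman's rho 0.886 (exact permutation p = 0.0333). Without replicates 1 and 5, r was 0.764 over the other 4. This was 1 relation, chosen after its values were seen. It is not particular to the pair: the 21 pairs of factors in AHRKO, most of them on different chromosomes, had r of 0.523 to 0.996 (median 0.881), and all share the low replicate 1. The pan-leukocyte markers had their highest sum in replicate 1 (3636 CPM) and their lowest AHRKO sum in replicate 5 (600 CPM). Which cells the reads of Blk and Gata4 come from was not tested.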
